A study of Mus musculus with 15 samples.

Results

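MAP kinase cascade genes code for the kinases that pass a signal from a receptor to its targets by phosphorylating each other in tiers. They were taken here as all genes whose symbol begins with Mapk, Map2k, Map3k, Map4k or Mapkapk followed by a digit, which gave 53 of the 25814 genes in the deposited tables. The choice used names only and no measured value. The series holds 15 libraries of RNA from bone marrow-derived macrophages (BMDMs) of adult wild-type C57BL/6 mice, grown for 6 days in DMEM with 10% FBS and 20% medium conditioned by L929 cells, which supplies the growth factor that turns marrow cells into macrophages. Each of 3 groups had 5 libraries. Control cells (Ctrl) had no stimulus named in the labels, and the other groups received 10 µg/ml poly(I:C) or 4 µM CL075, both for 6 h. Poly(I:C) is a synthetic double-stranded RNA sensed by TLR3 and by RNA receptors of the cytosol, and CL075 is a small-molecule agonist of TLR7 in mice. Nothing in the labels says that the 5 libraries of a group came from separate animals or cultures, so p-values measure the spread between these libraries, which may be technical.

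In the cascade, a MAP4K or an adaptor protein engages a MAP3K, the MAP3K phosphorylates a MAP2K, and the MAP2K phosphorylates a MAPK. The MAPKs of macrophages fall into the ERK, JNK and p38 families, which act on transcription factors such as AP-1 and on kinases of the MAPKAPK group. Toll-like receptors reach the cascade through the MAP3Ks TAK1 and TPL2, and p38 with its target MK2 controls the stability and translation of cytokine mRNAs in these cells. The libraries report mRNA only and give no measure of protein or of phosphorylation.

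Each library held 21816291 to 32487565 counts, and the 53 genes together took 0.208 to 0.277% of them. Macrophage markers summed to 31212 to 34161 CPM (counts per 1000000, scaled with TMM factors) in control, 32523 to 36941 in CL075 and 34974 to 36939 in poly(I:C) libraries. Most of it was Lyz2, and single markers moved both ways. In control, CL075 and poly(I:C) libraries Cx3cr1 averaged 10.2, 5.03 and 1.36 CPM, Mertk 103, 24.7 and 232, and Fcgr1 405, 963 and 2575. The sums of neutrophil markers were 21.9 to 98.1 CPM in control, 112 to 232 in CL075 and 42.4 to 193 in poly(I:C) libraries, and none of the 9 was without counts in any group. Means in control and CL075 libraries were 15.1 and 99.2 CPM for S100a8, 23.7 and 43.0 for S100a9 and 10.8 and 19.1 for Ngp. Those of Mpo were 1.19 and 1.08 and those of Ly6g 0.016 and 0.013. Dendritic cell markers summed to 1.06 to 1.77 CPM in control, 1.32 to 2.18 in CL075 and 15.6 to 19.6 in poly(I:C) libraries, most of the last from Clec9a, and Cd209a had no count after either stimulus. T and NK cell markers summed to 46.8 to 57.3 CPM in control, 37.6 to 48.1 in CL075 and 72.6 to 86.0 in poly(I:C) libraries, most of it Cd4, and Ncr1 had no count in the control and poly(I:C) libraries. The part of these lists in the changes of the cascade genes was not tested. In such bulk RNA, fewer cells of a type and less RNA per cell cannot be told apart.

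Of the 53 genes, 42 passed the filter on low counts and were tested. The 11 that did not were the MAPKs Mapk4, Mapk10, Mapk12, Mapk13 and Mapk15, the MAP3Ks Map3k13, Map3k19 and Map3k21, and Map3k7cl, Mapk8ip1 and Mapk8ip2. Of these, 3 had no count in any of the 15 libraries (Mapk10, which codes for JNK3 and is known as the neuronal JNK, Mapk8ip2 and Map3k7cl), and the other 8 had at most 49 counts over all libraries. The p38 family was therefore measured through Mapk14 and Mapk11 and the JNK family through Mapk8 and Mapk9.

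Levels per length were compared as TPM (transcripts scaled for gene length and to the same sum in every library), which put genes of one library on one scale. In control libraries the most abundant MAPK was Mapk3, coding for ERK1, at 263 ± 4.73 TPM (SD, n = 5). Mapk14, coding for p38α, followed at 124 ± 6.96 TPM, and the library values of these genes did not overlap. Mapk6 at 44.9 ± 1.66 TPM and Mapk9 at 42.5 ± 2.98 TPM overlapped, and Mapk11, coding for p38β, was the lowest of the tested MAPKs at 1.86 ± 0.242 TPM. Among the MAP2Ks, Map2k3 at 111 ± 6.61 TPM and Map2k1 at 103 ± 7.75 TPM overlapped and led. Map3k3 at 99.2 ± 3.01 TPM was the highest MAP3K, Map4k4 at 62.2 ± 3.10 TPM the highest MAP4K and Mapkapk2 at 119.5 ± 4.07 TPM the highest MAPKAPK.

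**Figure D1:**
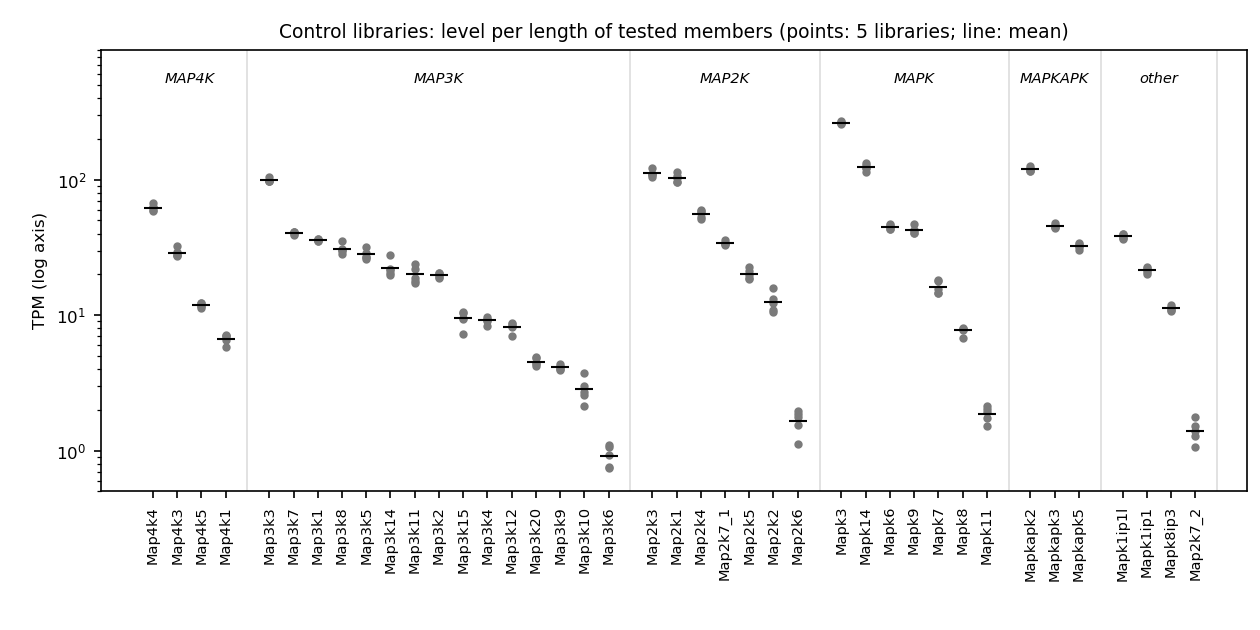
TPM in the 5 control libraries for 40 of the 42 tested genes on a log axis, ordered within each tier (MAP4K, MAP3K, MAP2K, MAPK, MAPKAPK and other names caught by the symbol rule). Mapk3 stands highest, and Map3k6 lowest at 0.913 TPM.

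Of the 42 tested genes, poly(I:C) raised 10 and lowered 21 against control, and CL075 raised 13 and lowered 10. A gene was called when its adjusted p was below 0.05, its change exceeded 1.5-fold and either group compared averaged over 0.5 TPM, by edgeR's quasi-likelihood test with Benjamini-Hochberg adjustment over all 11804 genes tested. Over all those genes, poly(I:C) gave 25.4% called higher and 30.5% called lower, and CL075 gave 17.6% and 21.5%. For the cascade genes the same shares were 23.8% and 50% under poly(I:C), and 31% and 23.8% under CL075. The excess of lower calls depended on the fold limit. At a fold over 2, poly(I:C) raised 9 and lowered 10 of the 42, beside 2219 and 2246 of the 11804 genes. Under poly(I:C) the cascade genes had a median log2 fold change of -0.59, beside -0.08 over all genes, and under CL075 one of 0.04, beside -0.02. Between the stimuli, 9 genes were called higher under poly(I:C) and 13 higher under CL075, where 22.7% and 23.7% of all genes were called. The libraries of the 2 groups did not overlap for 37 of the 42 tested genes with poly(I:C), 33 with CL075 and 30 between the stimuli. Without overlap were 75.9%, 65.2% and 66.2% of all genes tested in the same comparisons.

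The balance of these counts moved with the scale. The median log2 fold change of all genes was -0.41 with poly(I:C) and -0.18 with CL075 under upper-quartile factors, and -1.02 and -0.37 when libraries were scaled by their totals. Less that of all genes, the median of the cascade genes was -0.51, -0.51 and -0.50 with poly(I:C) and 0.06, 0.06 and 0.06 with CL075 under TMM, upper-quartile and library-total scales in turn. Scaled by totals, the calls against control were 7 higher and 31 lower under poly(I:C) and 9 higher and 20 lower under CL075. Over all 11804 genes the same counts were 1546 and 7663, and 1208 and 4184, so the lower calls were in the majority there too. Poly(I:C) against CL075 then gave 3 higher and 25 lower, and under upper-quartile factors 5 higher and 16 lower. Over all genes these were 1629 and 5631, and 2275 and 3452. Changes are given on the TMM scale as log2 fold change ± standard error, and library values follow the order of replicates 1 to 5. TMM factors were 1.33 to 1.38 in control, 1.03 to 1.09 in CL075 and 0.683 to 0.721 in poly(I:C) libraries. The size of single changes depended on the scale, also where the call held. Under library totals the rises with poly(I:C) were 1.40 for Map2k1, 1.24 for Map2k4 and Mapkapk2, 0.76 for Map4k3 and 0.69 for Mapk9. These rises were all still called, and the falls of Mapk14 and Map3k12 were larger on that scale.

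**Figure D2:**
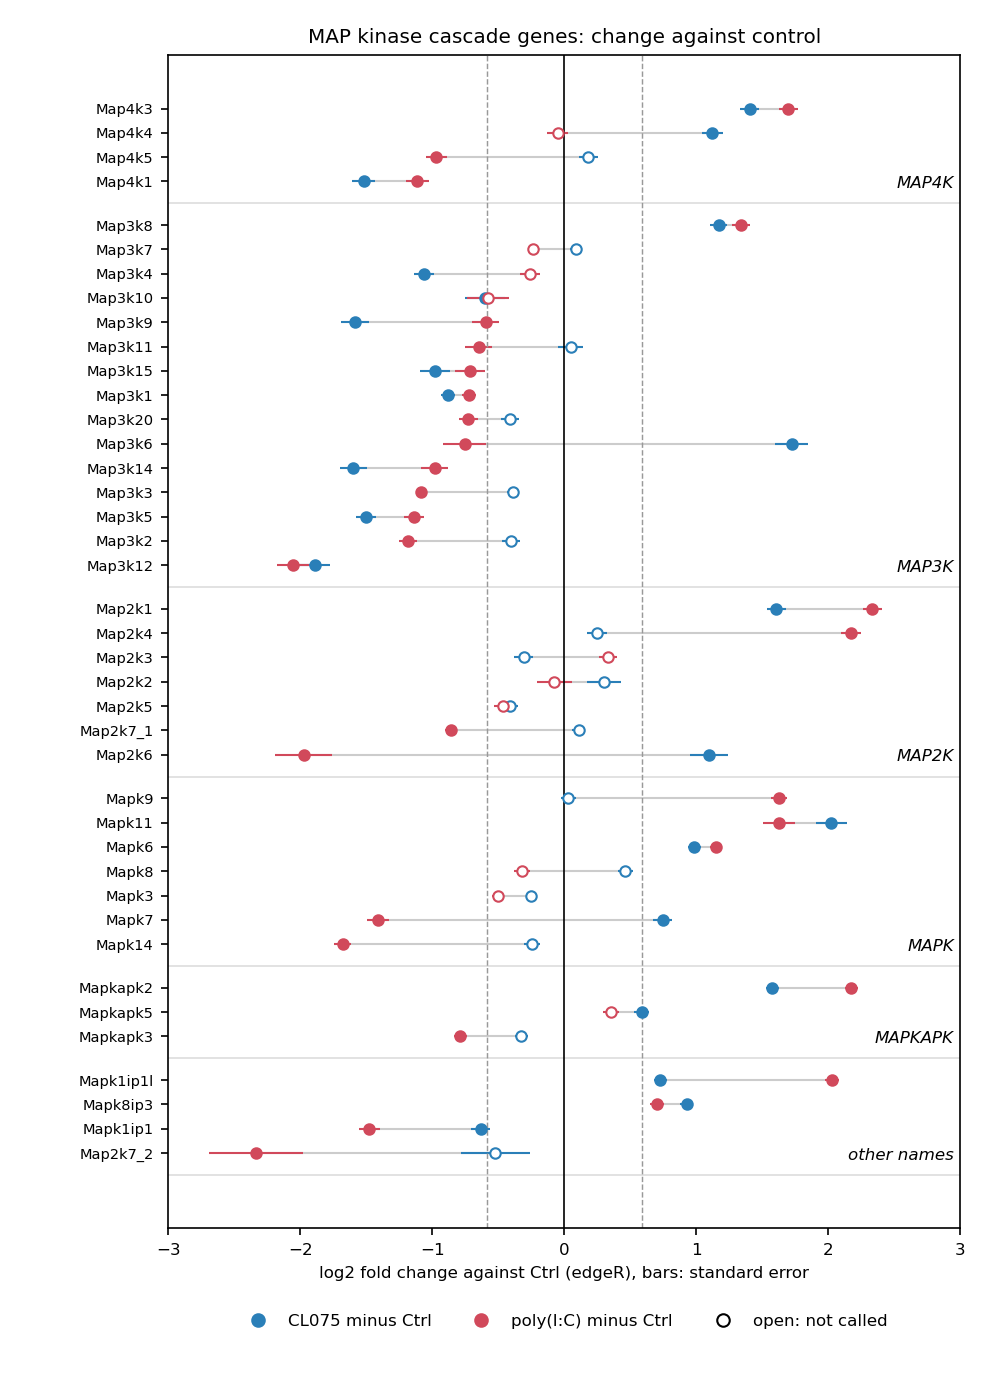
Log2 fold change (edgeR, bars: standard error) of 40 of the 42 tested genes against control, by tier, for CL075 (blue) and poly(I:C) (red), with filled points for genes called and dashed lines at 1.5-fold. In the MAP3K tier 11 of 15 genes were called lower with poly(I:C) at the 1.5-fold limit, while Map2k1, Map2k4, Mapk9 and Mapkapk2 lie far to the right.

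The promoters of 4 called genes are shown, chosen after their values were seen, 2 for the largest rise with poly(I:C) in their tiers (Map2k1 and Mapkapk2) and 2 because a gene that rose (Mapk1ip1l) and one that fell (Mapk14) hold the same motif letters. The sequences are from RefSeq on GRCm38.p6, the build of the files, from 250 bases before to 50 bases after the annotated start, read on the strand of the gene. Capitals mark matches on either strand to an NF-kB motif (GGGANNTTC), the core of the interferon-stimulated response element (ISRE, GAAANNGAA), AP-1 (TGANTCA) or CRE (TGACGTCA). Of the 42 tested genes, 34 had at least 1 promoter in the table. The stretch shown is chr9:64253556-64253855, minus strand, for Map2k1, chr1:131097794-131098093, minus strand, for Mapkapk2, chr14:47298024-47298323, plus strand, for Mapk1ip1l, and chr17:28692318-28692617, plus strand, for Mapk14.
Map2k1: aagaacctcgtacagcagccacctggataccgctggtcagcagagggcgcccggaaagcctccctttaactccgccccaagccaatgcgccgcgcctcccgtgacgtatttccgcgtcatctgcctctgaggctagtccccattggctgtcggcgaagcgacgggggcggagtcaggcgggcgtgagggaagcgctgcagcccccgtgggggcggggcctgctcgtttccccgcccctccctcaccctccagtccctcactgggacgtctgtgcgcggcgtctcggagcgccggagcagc
Mapkapk2: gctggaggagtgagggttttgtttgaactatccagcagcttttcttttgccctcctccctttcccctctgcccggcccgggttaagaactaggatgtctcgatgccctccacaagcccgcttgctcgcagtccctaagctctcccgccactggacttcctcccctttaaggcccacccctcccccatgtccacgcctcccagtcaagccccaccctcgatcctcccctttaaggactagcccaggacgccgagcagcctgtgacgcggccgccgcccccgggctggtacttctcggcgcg
Mapk1ip1l: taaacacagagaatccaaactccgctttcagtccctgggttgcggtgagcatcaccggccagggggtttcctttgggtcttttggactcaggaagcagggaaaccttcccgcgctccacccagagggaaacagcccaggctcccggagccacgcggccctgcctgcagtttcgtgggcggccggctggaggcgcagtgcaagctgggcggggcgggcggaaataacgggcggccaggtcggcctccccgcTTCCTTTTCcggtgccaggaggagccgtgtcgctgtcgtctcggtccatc
Mapk14: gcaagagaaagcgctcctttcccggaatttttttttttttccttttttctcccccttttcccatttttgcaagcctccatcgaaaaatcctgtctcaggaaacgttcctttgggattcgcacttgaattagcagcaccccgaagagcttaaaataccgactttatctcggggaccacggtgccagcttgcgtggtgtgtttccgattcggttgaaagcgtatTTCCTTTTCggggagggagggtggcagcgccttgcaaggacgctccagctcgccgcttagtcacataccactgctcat

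The promoters of Map2k1 and Mapkapk2 held none of the 4 motifs. Mapk1ip1l and Mapk14 held the same ISRE core match on the reverse strand, in Mapk1ip1l at the annotated start and in Mapk14 28 bases before the second of its 2 listed starts. No match overlapped another motif. The ISRE core was present in 5 of the 46 promoters of the 34 genes (10.9%), those of Map2k7, Mapk14, Mapk1ip1l, Mapkapk3 and Mapkapk5, and in 8.56% of all 32851 promoters. AP-1 letters were in 3 of the 46 (6.52%), those of Map2k6, Map2k7 and Map3k10, and in 7.81% of all. The NF-kB letters were in 1 promoter (2.17%), that of Map3k7, and in 3.94% of all, and CRE letters in none of the 46 and in 1.79% of all. A match is a description of these letters and shows no binding.

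The MAP2K tier held the largest rise of the family. Map2k1 (ENSMUSG00000004936, chr9:64185770-64253631, minus strand) codes for MEK1, which phosphorylates ERK kinases. It stood at 72.1, 88.0, 77.9, 82.1 and 71.9 CPM in the control libraries, 224, 254, 252, 260.2 and 205 with CL075 and 384, 426, 399, 384 and 381 with poly(I:C). The 3 groups did not overlap, with poly(I:C) highest and control lowest. The change was 2.33 ± 0.07 (edgeR adjusted p = 6.8e-16) with poly(I:C), a 5.04-fold rise, and 1.61 ± 0.07 (edgeR adjusted p = 4.2e-13) with CL075, a 3.05-fold rise. Poly(I:C) also exceeded CL075 for Map2k1 (0.73 ± 0.07, edgeR adjusted p = 1.6e-08), a difference that fell to 0.56 under upper-quartile factors and to 0.14 under library totals and was then not called. Its close relative Map2k2, coding for MEK2, was called in neither comparison (-0.07 ± 0.13 with poly(I:C) and 0.30 ± 0.13 with CL075), though under library totals it was called lower with poly(I:C) at -1.01.

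Map2k4 (ENSMUSG00000033352, chr11:65688243-65788297, minus strand), coding for MKK4, which acts on JNK and p38, separated the stimuli. Its levels were 65.3, 75.6, 72.9, 71.8 and 62.4 CPM in the control libraries, 78.2, 86.5, 88.3, 81.1 and 78.3 with CL075 and 292, 329, 374, 283 and 293 with poly(I:C). All 5 poly(I:C) libraries were over 3 times the highest CL075 or control library. Map2k4 was 4.51-fold higher with poly(I:C) (2.17 ± 0.08, edgeR adjusted p = 3.9e-15), was not called with CL075 (0.25 ± 0.07, edgeR adjusted p = 0.0059), and differed between the stimuli by 1.93 ± 0.08 (edgeR adjusted p = 3.1e-14). Map2k7, coding for MKK7, the other activator of JNK, was lower with poly(I:C) (-0.86 ± 0.05, edgeR adjusted p = 5.1e-12) and was not called with CL075 (0.11 ± 0.05). Its exons share 35.2% of their bases with a second gene model listed under the same name, so reads of the pair could be split between them.

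MKK3 and MKK6, which phosphorylate p38, are encoded by Map2k3 and Map2k6. Map2k3 was 71.5, 84.8, 75.3, 76.8 and 72.0 CPM in the control libraries, 56.1, 70.3, 63.5, 63.2 and 54.2 with CL075 and 93.7, 102, 99.4, 85.5 and 98.3 with poly(I:C). Poly(I:C) libraries were all above and CL075 libraries all below the control libraries, but neither difference reached 1.5-fold (0.33 ± 0.07 and -0.31 ± 0.07). The stimuli differed by 0.64 ± 0.07 (edgeR adjusted p = 1.1e-07), a call lost at 0.47 under upper-quartile factors and 0.06 under library totals, and under totals the value with poly(I:C) against control turned to -0.60 and Map2k3 was called lower with CL075 at -0.66. Map2k6, shown by library because its values were seen to move in opposite directions, was 1.63, 1.06, 1.81, 1.46 and 1.70 CPM in the control libraries, 3.06, 2.94, 4.26, 3.34 and 2.80 with CL075 and 0.456, 0.329, 0.384, 0.377 and 0.389 with poly(I:C). CL075 libraries were all highest and poly(I:C) libraries all lowest. Counts of Map2k6 were few, at 6 to 9 in each poly(I:C) library. Map2k6 rose with CL075 (1.09 ± 0.15, edgeR adjusted p = 1.7e-06) and fell with poly(I:C) (-1.97 ± 0.22, edgeR adjusted p = 9.3e-08), a difference of -3.07 ± 0.20 (edgeR adjusted p = 6.9e-11). Map2k5, which codes for the activator of ERK5, was not called on the TMM scale (-0.46 ± 0.07 with poly(I:C) and -0.41 ± 0.07 with CL075), but was called lower with poly(I:C) under upper-quartile factors (-0.79) and under library totals (-1.40), and with CL075 under totals (-0.77).

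Among the MAPKs, Mapk14 showed the largest fall. The gene (ENSMUSG00000053436, chr17:28691342-28748404, plus strand) codes for p38α, the main p38 of macrophages. It was measured at 159, 150.5, 172, 161 and 165 CPM in the control libraries, 146, 137, 123, 126 and 152 with CL075 and 54.2, 51.8, 44.6, 51.9 and 49.6 with poly(I:C). The poly(I:C) libraries lay below every other library, while CL075 and control libraries overlapped by 1 library. Mapk14 fell by 3.20-fold with poly(I:C) (-1.68 ± 0.06, edgeR adjusted p = 1.4e-14), and with CL075 the value of -0.24 ± 0.06 (edgeR adjusted p = 0.0016) was under 1.5-fold and was called under library totals at -0.59. The stimuli differed by -1.44 ± 0.06 (edgeR adjusted p = 2.1e-13). Mapk11 (ENSMUSG00000053137, chr15:89142486-89149628, minus strand), coding for p38β, went the other way from a low level, at 1.32, 1.64, 1.54, 1.17 and 1.44 CPM in the control libraries, 5.36, 6.12, 5.74, 6.79 and 5.08 with CL075 and 3.80, 4.44, 5.21, 4.71 and 3.98 with poly(I:C). Every stimulated library was above every control library. Mapk11 was 3.09-fold higher with poly(I:C) (1.63 ± 0.12, edgeR adjusted p = 4.8e-10) and 4.06-fold higher with CL075 (2.02 ± 0.12, edgeR adjusted p = 1.8e-11). The difference between the stimuli, -0.40 ± 0.11, was not called, except under library totals at -0.98.

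The 2 JNK genes parted after poly(I:C). Mapk9 (ENSMUSG00000020366, chr11:49846751-49886421, plus strand), coding for JNK2, was present at 58.9, 63.4, 69.9, 63.8 and 58.1 CPM in the control libraries, 66.5, 68.1, 66.9, 62.3 and 57.3 with CL075 and 194, 209.8, 188, 185 and 195 with poly(I:C). Control and CL075 libraries overlapped and poly(I:C) libraries were far above both. The rise with poly(I:C) was 3.09-fold (1.63 ± 0.06, edgeR adjusted p = 6.1e-15), the change with CL075 was 0.03 ± 0.06 (edgeR adjusted p = 0.64), and the stimuli differed by 1.60 ± 0.06 (edgeR adjusted p = 1.3e-14). Mapk8, coding for JNK1, had 12.3, 14.9, 14.2, 14.4 and 14.1 CPM in the control libraries, 19.7, 20.0, 20.2, 18.0 and 18.4 with CL075 and 10.7, 10.7, 12.2, 11.2 and 11.2 with poly(I:C). CL075 libraries were highest and poly(I:C) libraries lowest, with no overlap among the groups. Neither comparison with control reached 1.5-fold (-0.32 ± 0.06 with poly(I:C) and 0.46 ± 0.06 with CL075), but poly(I:C) was below CL075 for Mapk8 (-0.78 ± 0.06, edgeR adjusted p = 1.0e-09). Under upper-quartile factors and under library totals Mapk8 was also called lower under poly(I:C) against control, at -0.64 and -1.26.

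Mapk3, coding for ERK1, was called in neither comparison with control. It was at 162, 169, 164, 163 and 165 CPM in the control libraries, 136, 144, 127, 146 and 139 with CL075 and 112, 119.8, 114, 117 and 118 with poly(I:C). The groups did not overlap, in the order control, CL075 and poly(I:C). The changes of -0.51 ± 0.04 and -0.25 ± 0.04 were under 1.5-fold, and under upper-quartile factors Mapk3 was called lower with poly(I:C) at -0.83, as it was under library totals at -1.44, and with CL075 at -0.60.

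Mapk7, coding for ERK5, an ERK with a long C-terminal extension, was added to the genes shown by library after its values were seen. It had 19.0, 15.5, 15.3, 16.5 and 18.5 CPM in the control libraries, 26.5, 30.2, 28.4, 28.0 and 29.3 with CL075 and 6.48, 5.91, 5.48, 6.40 and 7.48 with poly(I:C). CL075 libraries were all above and poly(I:C) libraries all below control. Mapk7 rose with CL075 (0.75 ± 0.07, edgeR adjusted p = 2.0e-08) and fell with poly(I:C) (-1.41 ± 0.08, edgeR adjusted p = 1.0e-11), and the stimuli differed by -2.16 ± 0.08 (edgeR adjusted p = 2.1e-14). Scaled by library totals the rise with CL075 was 0.39 and not called. Mapk6, coding for the atypical kinase ERK3, was higher with both stimuli (1.15 ± 0.05, edgeR adjusted p = 4.6e-14 with poly(I:C) and 0.99 ± 0.05, edgeR adjusted p = 1.4e-12 with CL075), though under library totals its value with poly(I:C) was 0.21 and not called.

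**Figure D3:**
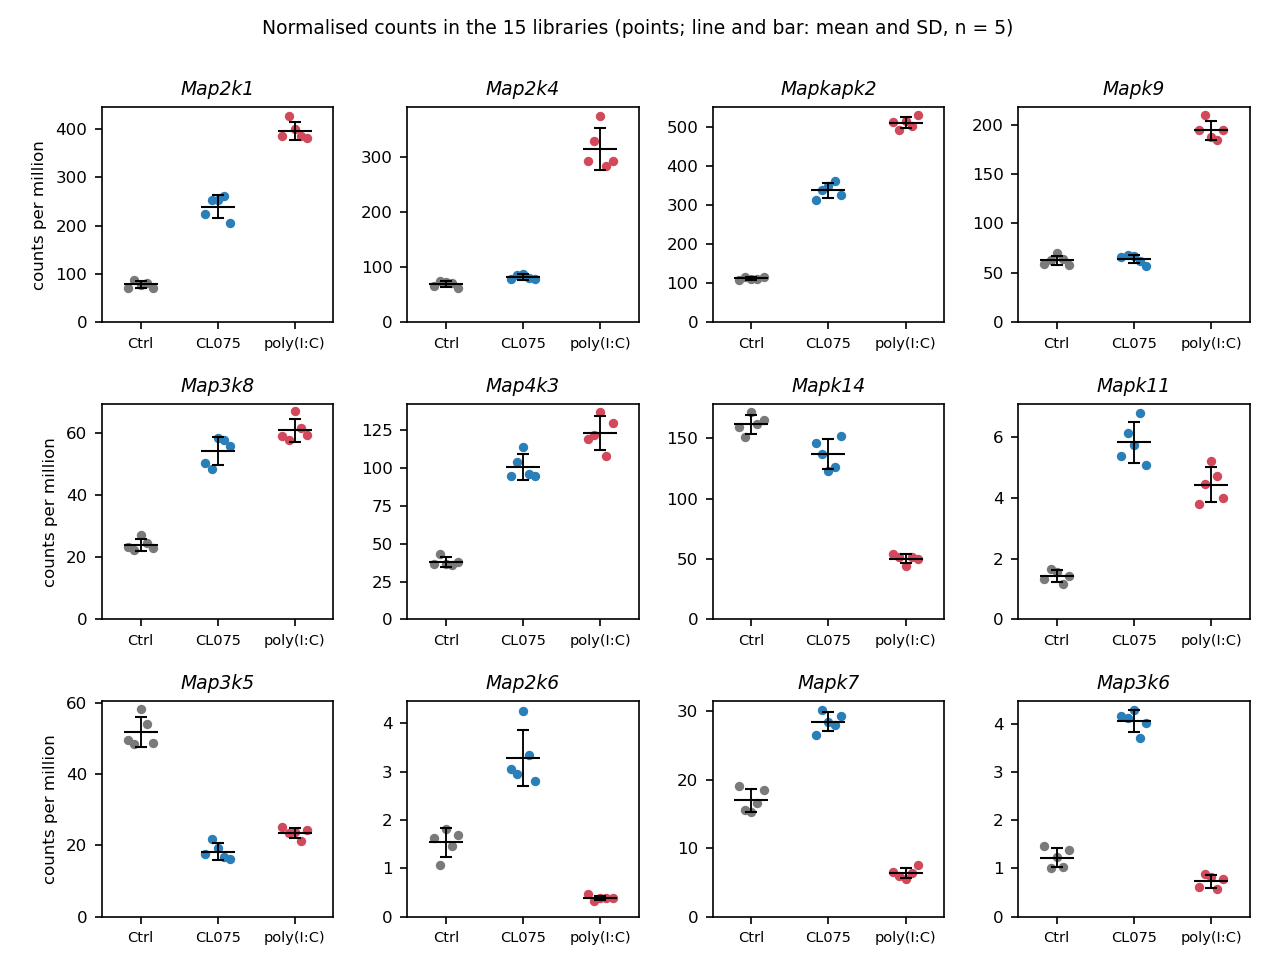
CPM (TMM-scaled) of 12 cascade genes in the 15 libraries, with points for libraries and lines with bars for the mean and SD of each group of 5. For Map2k4 and Mapk9 the poly(I:C) libraries lie above the other 10 and for Mapk14 below them, and Map2k6, Mapk7 and Map3k6 are highest with CL075 and lowest with poly(I:C).

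Of the 15 tested MAP3K genes, poly(I:C) raised 1 and lowered 11, with a median of -0.72, and CL075 raised 2 and lowered 8, with a median of -0.60. Over all genes tested, poly(I:C) gave 25.4% called higher and 30.5% called lower and CL075 17.6% and 21.5%, with medians of -0.08 and -0.02. The lower calls of this tier depended on the fold limit. At a fold over 2, those with poly(I:C) held only for Map3k2, Map3k3, Map3k5 and Map3k12. Those with CL075 held for Map3k4, Map3k5, Map3k9, Map3k12 and Map3k14 and were lost for Map3k1, Map3k10 and Map3k15. Of all 11804 genes, 2246 were then lower with poly(I:C) and 1401 with CL075. Higher with both stimuli was Map3k8, coding for TPL2, the kinase that Toll-like receptors use to reach MEK1 and ERK. It stood at 23.4, 22.4, 27.2, 24.5 and 22.9 CPM in the control libraries, 50.3, 48.3, 58.3, 57.8 and 55.9 with CL075 and 59.1, 57.8, 67.0, 61.5 and 59.2 with poly(I:C). All 10 stimulated libraries were above all control libraries. Map3k8 rose 2.53-fold with poly(I:C) (1.34 ± 0.07, edgeR adjusted p = 6.6e-13) and 2.25-fold with CL075 (1.17 ± 0.07, edgeR adjusted p = 1.2e-11), and the stimuli did not differ by 1.5-fold (0.17 ± 0.06). Under library totals its value with poly(I:C) was 0.40 and not called. Map3k7, coding for TAK1, which acts downstream of Toll-like receptors on MKK kinases and on NF-kB, was 69.2, 72.8, 73.3, 74.3 and 72.7 CPM in the control libraries, 77.9, 80.5, 76.4, 73.0 and 77.4 with CL075 and 59.4, 61.9, 65.4, 62.9 and 58.2 with poly(I:C). The poly(I:C) libraries were lowest and the CL075 libraries overlapped the control. Neither change was called (-0.24 ± 0.04 and 0.09 ± 0.04), and under library totals Map3k7 was called lower with poly(I:C) at -1.17.

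Map3k5, coding for ASK1, a kinase activated by oxidative stress, was 49.5, 48.4, 58.3, 53.9 and 48.6 CPM in the control libraries, 17.5, 21.6, 19.3, 16.7 and 16.1 with CL075 and 25.0, 23.3, 23.8, 21.0 and 24.1 with poly(I:C). Every stimulated library was below every control library. The falls were -1.14 ± 0.08 (edgeR adjusted p = 7.6e-11) with poly(I:C) and -1.50 ± 0.08 (edgeR adjusted p = 3.1e-12) with CL075. Map3k6, coding for the related ASK2, was 1.46, 1.01, 1.25, 1.03 and 1.39 CPM in the control libraries, 4.17, 4.13, 4.29, 3.70 and 4.02 with CL075 and 0.608, 0.876, 0.822, 0.565 and 0.778 with poly(I:C). The groups did not overlap, with CL075 highest and poly(I:C) lowest. Map3k6 rose with CL075 (1.72 ± 0.12, edgeR adjusted p = 3.6e-10) and fell with poly(I:C) (-0.76 ± 0.16, edgeR adjusted p = 3.4e-04), and the stimuli differed by -2.48 ± 0.15 (edgeR adjusted p = 1.5e-11). Counts of Map3k6 were few, at 12 to 18 in each poly(I:C) library and 36 to 60 in each control library.

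The largest fall of the tier was that of Map3k12, coding for DLK, known from its part in neuronal stress signals through JNK. Its values were 15.9, 13.0, 14.8, 15.3 and 15.4 CPM in the control libraries, 3.79, 4.13, 2.74, 5.24 and 4.17 with CL075 and 3.34, 3.56, 3.18, 3.72 and 3.98 with poly(I:C). Stimulated libraries did not overlap the control and overlapped each other. The changes were -2.06 ± 0.12 (edgeR adjusted p = 8.3e-12) with poly(I:C) and -1.89 ± 0.11 (edgeR adjusted p = 2.6e-11) with CL075. Genes on the other strand cover 19.3% of its exon bases, and the sources used here do not give how strand was treated in counting. Such cover was 14.8% for Map3k10, 13.9% for Map3k15, 11.1% for Mapk1ip1l and 10.4% for Mapk1ip1. For the other tested genes it was at most 9.79%. Map3k14, coding for NIK, the kinase of the non-canonical NF-kB pathway, was also lower with both stimuli, at -0.98 ± 0.10 (edgeR adjusted p = 3.8e-08) with poly(I:C) and -1.60 ± 0.10 (edgeR adjusted p = 7.8e-11) with CL075. Poly(I:C) exceeded CL075 for Map3k14 (0.61 ± 0.11), a call lost without CL075 library 4 (0.53) or poly(I:C) library 5 (0.53), and at 0.45 under upper-quartile factors and 0.03 under library totals.

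Lower with both stimuli were also Map3k1, coding for MEKK1 (-0.72 ± 0.05 with poly(I:C) and -0.88 ± 0.05 with CL075), Map3k15, coding for ASK3 (-0.72 ± 0.12 and -0.98 ± 0.11) and Map3k9, coding for the mixed-lineage kinase MLK1 (-0.60 ± 0.10 and -1.58 ± 0.10). The Map3k9 call with poly(I:C) was lost without control library 1 (-0.58) or poly(I:C) library 2 (-0.53), with the 2 groups fitted alone (-0.57) and with DESeq2 (-0.53). Called on the TMM scale with poly(I:C) and not with CL075 were Map3k2, coding for MEKK2 (-1.18 ± 0.07, beside -0.40 ± 0.07 with CL075), Map3k3, coding for MEKK3 (-1.08 ± 0.04 beside -0.39 ± 0.04), Map3k20, coding for ZAK (-0.73 ± 0.07 beside -0.41 ± 0.07) and Map3k11, coding for MLK3 (-0.65 ± 0.10 beside 0.05 ± 0.09). Map3k2, Map3k3 and Map3k11 were also lower under poly(I:C) when set against CL075 (-0.78 ± 0.07, -0.69 ± 0.04 and -0.70 ± 0.10), and for Map3k20 that difference of -0.31 ± 0.08 was not called. Scaled by library totals, Map3k2, Map3k3 and Map3k20 were called lower with CL075 as well, at -0.75, -0.74 and -0.76, and Map3k20 lower under poly(I:C) than CL075 at -0.90. The Map3k11 call with poly(I:C) was lost without control library 5 (-0.58) and with DESeq2 (-0.58).

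Called on the TMM scale with CL075 and not with poly(I:C) were Map3k4, coding for MEKK4 (-1.06 ± 0.08 beside -0.26 ± 0.07 with poly(I:C), a difference of 0.80 ± 0.08), and Map3k10, coding for MLK2 (-0.60 ± 0.15 beside -0.58 ± 0.16, not called as different). Scaled by library totals, Map3k4 was called lower with poly(I:C) too, at -1.20, as was Map3k10 under upper-quartile factors at -0.91 and under totals at -1.52. For Map3k4 and Map3k9 poly(I:C) was above CL075, calls lost under library totals at 0.21 and 0.40. The Map3k10 call with CL075 was lost without control library 1 (-0.58) or 5 (-0.48), without CL075 library 1 (-0.58) or 3 (-0.51), and with DESeq2 (-0.56). Its value with poly(I:C) lay just inside 1.5-fold and was called with no low-count filter (-0.60), without control library 2 (-0.59), 3 (-0.61) or 4 (-0.66), without CL075 library 4 (-0.59), and without poly(I:C) library 4 (-0.69) or 5 (-0.62).

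MAP4Ks are kinases related to yeast Ste20 that act above MAP3Ks. Map4k3, coding for GLK, was 36.3, 43.4, 36.3, 36.2 and 37.7 CPM in the control libraries, 94.6, 104, 114, 95.8 and 94.5 with CL075 and 119, 122, 137, 108 and 130.0 with poly(I:C). Every stimulated library was over 2 times the highest control library. The rises were 1.70 ± 0.07 (edgeR adjusted p = 7.0e-14) with poly(I:C) and 1.41 ± 0.07 (edgeR adjusted p = 3.2e-12) with CL075. Map4k1, coding for HPK1, a kinase of blood cells known to restrain lymphocyte receptor signals, was 6.56, 5.49, 6.15, 6.72 and 6.41 CPM in the control libraries, 1.91, 2.35, 2.05, 2.20 and 2.34 with CL075 and 2.89, 3.01, 2.69, 2.97 and 2.90 with poly(I:C). Control libraries were highest and CL075 libraries lowest, with no overlap among groups. The falls of Map4k1 were -1.11 ± 0.09 (edgeR adjusted p = 6.5e-10) with poly(I:C) and -1.52 ± 0.09 (edgeR adjusted p = 1.2e-11) with CL075.

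Map4k4, coding for HGK, was called higher with CL075 (1.12 ± 0.08, edgeR adjusted p = 5.4e-10, from 117 ± 6.29 to 256 ± 34.5 CPM, SD, n = 5) and was at -0.05 ± 0.08 with poly(I:C), the stimuli differing by -1.17 ± 0.08 (edgeR adjusted p = 2.0e-10). Scaled by library totals, Map4k4 was called lower with poly(I:C) at -0.99. Map4k5, coding for KHS, was lower with poly(I:C) (-0.97 ± 0.08) and not called with CL075 (0.18 ± 0.07), a difference of -1.15 ± 0.08 (edgeR adjusted p = 1.4e-10).

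Below the p38 kinases stand the MAPKAPKs. Mapkapk2 (ENSMUSG00000016528, chr1:131053700-131097826, minus strand), coding for MK2, which p38α activates and which stabilises cytokine mRNAs, was 109.5, 117, 110.4, 112 and 116 CPM in the control libraries, 312, 338, 349, 361 and 324 with CL075 and 511, 492, 515, 502 and 528 with poly(I:C). The 3 groups did not overlap, and the poly(I:C) libraries were over 4 times the control libraries. It was 4.51-fold higher with poly(I:C) (2.17 ± 0.05, edgeR adjusted p = 5.2e-18) and 2.98-fold higher with CL075 (1.58 ± 0.05, edgeR adjusted p = 1.4e-15). The difference between the stimuli, 0.60 ± 0.05, lay at the 1.5-fold limit and was lost without CL075 library 1 (0.57) or 5 (0.58) and without poly(I:C) library 1 (0.58), 3 (0.58) or 5 (0.58), and was 0.57 with no low-count filter, 0.43 under upper-quartile factors and 0.01 under library totals. Mapkapk3, coding for the related MK3, was 42.8, 43.4, 44.2, 42.5 and 44.7 CPM in the control libraries, 36.5, 34.9, 32.1, 36.6 and 33.5 with CL075 and 24.0, 28.0, 25.2, 24.6 and 24.4 with poly(I:C). The groups did not overlap, with control highest and poly(I:C) lowest. Mapkapk3 was lower at -0.79 ± 0.05 (edgeR adjusted p = 3.0e-11) with poly(I:C) and was not called with CL075 (-0.33 ± 0.05, edgeR adjusted p = 6.1e-06), though under library totals it was, at -0.68.

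Mapkapk5, coding for MK5, was called higher with CL075 at the 1.5-fold limit (0.59 ± 0.06) and not with poly(I:C) (0.35 ± 0.06). The call was lost without control library 1 (0.58), 3 (0.58) or 5 (0.56), without CL075 library 2 (0.58), 3 (0.56) or 4 (0.57), with the 2 groups fitted alone (0.58), and at 0.43 under upper-quartile factors and 0.24 under library totals. Genes on the same strand cover 56.5% of its exon bases, so its counts are uncertain.

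The symbol rule also caught 4 tested genes that are not kinases of a tier or repeat one. Mapk1ip1l was 62.0, 69.4, 68.0, 65.3 and 61.8 CPM in the control libraries, 103, 111, 116, 107 and 103 with CL075 and 262, 281, 276, 250.4 and 262 with poly(I:C). The groups did not overlap, with poly(I:C) highest. It rose by 2.03 ± 0.05 (edgeR adjusted p = 3.4e-17) with poly(I:C) and 0.73 ± 0.05 (edgeR adjusted p = 2.1e-10) with CL075, and the stimuli differed by 1.30 ± 0.05 (edgeR adjusted p = 2.0e-14). With CL075 the value was 0.57 under upper-quartile factors and 0.38 under library totals, and then not called. Mapk1ip1 was lower with both stimuli (-1.48 ± 0.08 with poly(I:C) and -0.63 ± 0.07 with CL075). Mapk8ip3, coding for the JNK scaffold JIP3, was higher with both (0.70 ± 0.05 and 0.93 ± 0.05), with the value for poly(I:C) not called under upper-quartile factors at 0.38 and turning to -0.23 under library totals, the value for CL075 not called under totals at 0.58, and its exons overlap those of Eme2, Mrps34 and Nme3. A second gene model listed as Map2k7 was 0.946, 1.17, 1.35, 1.26 and 1.56 CPM in the control libraries, 0.978, 0.992, 1.16, 0.513 and 0.742 with CL075 and 0.152, 0.164, 0.0548, 0.188 and 0.605 with poly(I:C). Its exons lie wholly within those of Map2k7 and Tgfbr3l, so its fall of -2.34 ± 0.36 with poly(I:C) is uncertain.

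Pairs of closely related kinases were then compared within each library, as the ratio of their TPM values, which does not depend on how libraries are scaled. With 9 pairs and 3 comparisons, 27 exact two-sided permutation tests of the log2 ratio were made, of which 22 had an adjusted p below 0.05 by Benjamini-Hochberg, and 8 of the pairs are given. The smallest p that 5 against 5 libraries can give is 0.00794, which after adjustment was 0.00974 for all 22, so these tests record that the libraries of the 2 groups did not overlap. Of single genes, 75.9%, 65.2% and 66.2% were without overlap in the 3 comparisons. No share over other pairs of genes was taken, so the count of 22 shows nothing particular to related kinases. Paired by replicate number, an exact sign-flip test over 5 pairs cannot go below p = 0.0625, so no ratio difference could pass with the pairing.

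The Mapk8/Mapk9 ratio, JNK1 over JNK2, was 0.170, 0.191, 0.165, 0.185 and 0.198 in the control libraries, 0.242, 0.240, 0.247, 0.235 and 0.262 with CL075 and 0.0449, 0.0415, 0.0529, 0.0495 and 0.0471 with poly(I:C). The mean log2 ratio changed by -1.95 with poly(I:C) and by 0.43 with CL075 (exact permutation, adjusted p = 0.00974 for each). The Mapk11/Mapk14 ratio, p38β over p38α, was 0.0141, 0.0186, 0.0153, 0.0124 and 0.0149 in the control libraries, 0.0627, 0.0762, 0.0795, 0.0918 and 0.0571 with CL075 and 0.119, 0.146, 0.199, 0.155 and 0.137 with poly(I:C). It rose by 3.32 and 2.28 on the log2 scale, and Mapk14 remained the more abundant in every library.

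The Map2k4/Map2k7 ratio, MKK4 over MKK7, was 1.56, 1.81, 1.73, 1.67 and 1.41 in the control libraries, 1.65, 1.90, 2.01, 1.83 and 1.63 with CL075 and 12.0, 14.8, 17.5, 11.9 and 11.6 with poly(I:C). Poly(I:C) raised it by 3.03 on the log2 scale, and with CL075 the difference of 0.14 was within the spread of libraries (exact permutation p = 0.159, adjusted p = 0.179). The Map2k3/Map2k6 ratio, MKK3 over MKK6, was 59.5, 109, 56.4, 71.6 and 57.7 in the control libraries, 24.9, 32.4, 20.3, 25.7 and 26.3 with CL075 and 279, 424, 352, 309 and 343 with poly(I:C). It went up by 2.30 with poly(I:C) and changed by -1.42 with CL075, with no overlap of libraries. Map2k6 had only 6 to 9 counts in each poly(I:C) library (mean 0.231 TPM), so the size of the ratio there is uncertain. The Map2k1/Map2k2 ratio, MEK1 over MEK2, rose by 2.43 and 1.30, and Mapkapk2/Mapkapk3, MK2 over MK3, rose by 2.96 and 1.90.

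The Map3k5/Map3k6 ratio, ASK1 over ASK2, was 24.7, 35.1, 34.2, 38.2 and 25.5 in the control libraries, 3.07, 3.82, 3.28, 3.28 and 2.92 with CL075 and 30.1, 19.4, 21.2, 27.2 and 22.6 with poly(I:C). It changed by -3.25 with CL075, while with poly(I:C) the libraries overlapped the control at a difference of -0.38 (exact permutation p = 0.0635, adjusted p = 0.0745). Map3k6 had only 12 to 18 counts in each poly(I:C) library (mean 0.300 TPM), so the size of the ratio there is uncertain. The Map3k2/Map3k3 ratio, MEKK2 over MEKK3, gave no difference that passed the test, with log2 differences of -0.10, -0.02 and -0.09 (exact permutation adjusted p = 0.24, 0.865 and 0.396). Both genes were lower with poly(I:C), by like amounts.

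**Figure D4:**
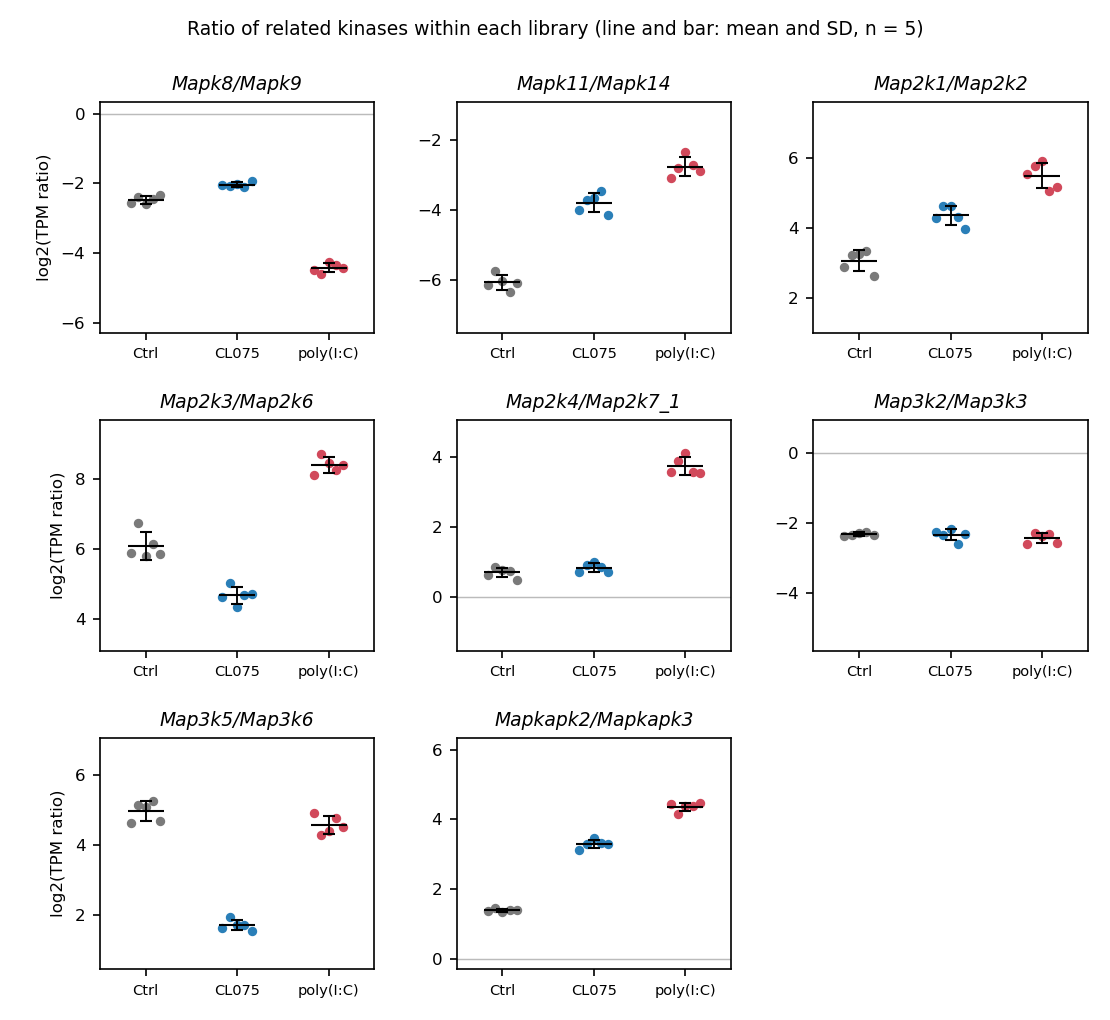
Log2 ratio of TPM values of 8 pairs of related kinases within each library, with points for libraries and lines with bars for mean and SD of 5 libraries. All panels span the same number of log2 units. The largest step from control is that of Mapk11/Mapk14 with poly(I:C), and the groups of Map3k2/Map3k3 overlap.

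Other kinases, partners and scaffolds of the cascade were taken from a list of 35 genes outside the symbol rule, of which 32 were tested. Against control, poly(I:C) gave 13 higher and 8 lower and CL075 gave 7 higher and 4 lower, and poly(I:C) against CL075 gave 8 higher and 7 lower. Over all genes tested, the shares called higher and lower were 25.4% and 30.5%, 17.6% and 21.5%, and 22.7% and 23.7% in the same comparisons. Scaled by library totals, the balance turned, to 4 higher and 17 lower under poly(I:C), 3 and 7 with CL075 and 4 and 15 between the stimuli. Over all genes the lower calls were in the majority there too, at 1546 and 7663, 1208 and 4184, and 1629 and 5631. On the TMM scale the medians of the 32 listed genes were 0.18 under poly(I:C) and 0.10 under CL075 on the log2 scale, beside the -0.08 and -0.02 of all genes. Nfkb1, whose p105 product binds TPL2 and holds it inactive, rose with both stimuli (2.19 ± 0.05, edgeR adjusted p = 3.6e-18 with poly(I:C) and 1.74 ± 0.05, edgeR adjusted p = 2.8e-16 with CL075). Group means went from 92.4 CPM in control to 309 with CL075 and 421 with poly(I:C). Among the targets of ERK and p38, Rps6ka5, coding for MSK1, fell with both (-2.62 ± 0.08, edgeR adjusted p = 1.0e-15 and -1.63 ± 0.07, edgeR adjusted p = 6.0e-13), while Rps6ka4, coding for MSK2, rose with CL075 (1.45 ± 0.05, edgeR adjusted p = 2.1e-14) and with poly(I:C) (0.99 ± 0.05, but 0.05 and not called under library totals).

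Mknk2, coding for MNK2, which phosphorylates the translation factor eIF4E, fell with both stimuli (-1.94 ± 0.07 with poly(I:C) and -1.64 ± 0.07 with CL075). Rps6ka1, coding for RSK1, a kinase activated by ERK, fell with poly(I:C) (-2.20 ± 0.09, edgeR adjusted p = 3.4e-14) and was not called with CL075 (-0.56 ± 0.08), the stimuli differing by -1.64 ± 0.09. The value of Rps6ka1 with CL075 was called lower without control library 2 (-0.60) or CL075 library 5 (-0.63), under upper-quartile factors (-0.72) and under library totals (-0.91). Ksr1, a scaffold that holds RAF, MEK and ERK together, rose with CL075 (1.43 ± 0.10, edgeR adjusted p = 3.0e-10) and fell with poly(I:C) (-1.80 ± 0.14), a difference of -3.22 ± 0.13 (edgeR adjusted p = 6.4e-14). Tab1, a partner of TAK1, was lower with CL075 (-0.74 ± 0.09) and with poly(I:C) (-1.09 ± 0.10). Taok3, a kinase of the Ste20 family, stood higher under poly(I:C) when set against CL075 (1.29 ± 0.05), and Ppm1d, coding for the phosphatase WIP1, was lower (-1.14 ± 0.07).

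The largest fold changes of the list belonged to genes near 0 in control. Cnksr1, coding for a scaffold of the RAS pathway, had no count in any control or CL075 library and 22 to 35 counts in each poly(I:C) library, 1.21 to 1.64 CPM. Against 3 counts over the 5 control libraries its poly(I:C) mean was at least 90.6-fold higher, and against 3 counts over the 5 CL075 libraries at least 70.7-fold higher. Tnik, another Ste20 kinase, had 54 counts over the control libraries, 27 over the CL075 libraries and 426 over the poly(I:C) libraries (3.85 ± 0.23, edgeR adjusted p = 1.4e-11 with poly(I:C)).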

How the data were processed

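RNA of 15 BMDM libraries (5 per group) was prepared with a stranded mRNA kit and sequenced as single reads. The authors trimmed reads, mapped them to GRCm38.p6 with Ensembl genes in CLC Genomics Workbench, allowing reads with several hits, and deposited counts per gene and TPM values, both used here. HISAT2, featureCounts and edgeR are also named in the submitters' processing notes. The sources used here do not give the strand setting. The deposited tables also hold 20 RPKM columns and the authors' fold changes and p-values, not used here.

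Counts were filtered with filterByExpr, scaled with TMM and tested by the quasi-likelihood test of edgeR 4.0.16 (R 4.3.3) in 1 fit of all 15 libraries, with Benjamini-Hochberg adjustment over 11804 genes. Standard errors were taken from the F statistic, as |log2 fold change| over its root. Depth was 21816291 to 32487565 counts per library. Intervals and spreads cover these libraries only. Libraries of a group differed by more than counting noise (chi-square per degree of freedom 5.49 to 26.6), so each was counted as 1 replicate. Same-numbered libraries deviated together (correlation over 0.1) in all 5 pairs of control with CL075, all 5 of CL075 with poly(I:C) and 4 of 5 of control with poly(I:C) (median over the 15 pairs 0.224, lowest -0.004, beside -0.047 for unlike numbers), and 13 of 15 libraries were closest to their own number. The sources used here do not say what a number marks. The fit behind the changes given has no block, and its p-values leave any pairing by number out. Pairing by number was run only as an alternative, in every comparison. It took the form of a replicate block in the fit and a sign-flip test of the ratios. Paralog ratios were tested by exact permutation in scipy 1.17.1. Alternatives were DESeq2 1.42.0, upper-quartile and library-total scaling, no low-count filter, no TPM floor, a fold over 2, the 2 groups compared alone, a replicate block, and each library left out.

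Every member may be named, except that 2 tested members, which all counts include, are not reported here. Library values are given for the 2 called members per tier with the largest change against control and for Mapk3, Mapk8, Mapk9, Mapk14, Map2k1, Map2k3, Map3k7, Map3k8, Map3k5 and Mapkapk2, with Map2k6 and Mapk7 added after their values were seen. Of the pathway neighbours, the 3 called in each direction of each comparison with the largest change are named. The symbol rule for the members used names only, but the rule and the lists were set with earlier results of these data known. B cell markers summed to 69.3 to 88.5 CPM over all libraries, most of it Blnk. Mast cell markers summed to at most 1.11, fibroblast markers to at most 0.99 and erythroid markers to at most 0.40 in control and 39.8 in other libraries. Gene positions are from GENCODE vM21 and promoters from RefSeq, both on GRCm38.p6.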

Additional observations from a re-analysis of the deposited data

Results flagged for a closer look

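Among 22 genes examined by library, in 66 groups of 5 libraries, 3 groups held a library that stood apart from the other 4 by Dixon's 95% criterion, which chance gives in about 1 group in 20. Map4k3 was at 43.4 CPM in control library 2, against 36.2 to 37.7 in the other control libraries. Mapk8 was at 12.3 CPM in control library 1, against 14.1 to 14.9 in the others. The second gene model listed as Map2k7 was at 0.605 CPM in poly(I:C) library 5, against 0.0548 to 0.188 in the others.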

How the results depend on the processing

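With a fold over 2 in place of 1.5, poly(I:C) raised 9 and lowered 10 cascade genes, CL075 raised 8 and lowered 6, and poly(I:C) against CL075 gave 3 higher and 7 lower, because fewer genes pass a higher limit. Scaled by library totals, 20 were lower with CL075, poly(I:C) against CL075 gave 3 higher and 25 lower, and upper-quartile factors gave 5 higher in that comparison. Against control with poly(I:C), library totals turned Map2k3 to -0.60 and Mapk8ip3 to -0.23. The cause of these shifts was not tested. Over all genes, library totals gave for poly(I:C) 1546 higher and 7663 lower (3002 and 3597 under TMM), 1208 and 4184 with CL075 (2082 and 2534), and 1629 and 5631 between the stimuli (2684 and 2803). A fold over 2 gave for poly(I:C) 2219 higher and 2246 lower, for CL075 1130 higher and 1401 lower, and 1876 higher and 1637 lower between the stimuli. Of the 32 pathway neighbours, library totals called for poly(I:C) 4 higher and 17 lower, 3 and 7 with CL075 and 4 and 15 between the stimuli, upper-quartile factors 4 higher with CL075 and 4 higher between the stimuli, and a fold over 2 gave for poly(I:C) 8 higher, for CL075 3 higher and 2 lower, and 4 higher and 3 lower between the stimuli.

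Leaving out each library in turn gave for poly(I:C) 10 cascade genes higher and 20 to 22 lower, 12 to 13 higher and 9 to 10 lower with CL075, and 7 to 9 higher and 13 lower between the stimuli. DESeq2, no low-count filter, no TPM floor and the 2 groups alone kept every count of cascade genes within 1.5 times. With a replicate block the counts for poly(I:C) were 10 higher and 21 lower, 13 and 10 with CL075, and 9 and 13 between the stimuli, and no cascade gene changed its call. Within 5 pairs an exact sign-flip test of a ratio cannot go below p = 0.0625, so none of the 22 ratio differences could pass with the block. The second gene model listed as Map2k7 had the largest standard errors of the cascade genes, up to 0.38.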
